A study of Mus musculus with 5 samples.

Results

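A set of 32 genes that mark the stromal and vascular cells of the mammary fat pad was followed through 5 bulk RNA-seq libraries of mouse mammary luminal cells. The set holds 12 fibroblast genes, 9 endothelial genes, 4 pericyte genes and 7 adipocyte genes, and no collagen gene. The members were picked by name as known markers of these cell types, and all 32 were found among the 24319 named genes of the expression table. The labels give wild type as the genotype of replicates 1, 2 and 3 and *Brca1* knockout as that of replicates 4 and 5, with mixed strain and mammary tissue for all 5.

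Per the study's methods, *Brca1* was deleted through floxed alleles by Cre recombinase under the MMTV promoter, which acts in mammary epithelium. Glands of virgin or pregnant female mice were digested, hematopoietic and endothelial cells were depleted with a kit, and living CD24Hi CD29Lo luminal cells were sorted by flow cytometry. The label of the RNA extraction speaks of frozen tumors instead. The study's results and a supplementary figure legend describe the luminal cells as BRCA1-deficient, where the labels give wild type for 3 libraries. The methods give an age range and a day of pregnancy for the mice in general, but the sources used here do not say which stage or animal each library came from, so the p-values below measure the spread between these samples, which may be technical.

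Luminal cells line the ducts and alveoli of the gland, which are embedded in a stroma of fibroblasts, vessels and fat. Fibroblasts build the matrix around the ducts, endothelial cells form the capillaries that feed the epithelium, pericytes wrap those capillaries, and adipocytes fill the pad and shrink as alveoli expand in pregnancy. A sort for CD24 and CD29 selects epithelium, and the 32 genes are better known from the cells that such a sort is meant to leave behind.

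The table gives FPKM, which scales the fragments of a gene to the length of its transcript and to the mapped total, so that levels can be compared between genes. Low values partly fall on steps, which put the depth at about 6510000, 13400000 and 31600000 fragments in wild type replicates 1, 2 and 3, and at 6590000 and 22200000 in *Brca1* knockout replicates 4 and 5. *Brca1* itself measured 1.30, 1.32 and 0.234 FPKM over the wild type libraries, beside 1.20 and 1.34 FPKM for the knockout pair. The lowest level was thus in replicate 3, a library labelled wild type, and the level did not separate the labels. The luminal keratin *Krt8* lay between 2240 and 3653 FPKM in all 5 libraries. The 6 luminal epithelium markers together summed to between 6364 and 10367 FPKM per library.

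The number of stromal and vascular genes above 1 FPKM differed between the libraries. It was 7, 18 and 18 of 32 in wild type replicates 1, 2 and 3, beside 7 and 8 in *Brca1* knockout replicates 4 and 5. Of the 32 members, 12 stayed below 1 FPKM in each of the 5 libraries, and *Lep* was listed at 0 in all of them. The 6 members above 1 FPKM in each library were *Sparc*, *Postn*, *Mgp*, *Gsn*, *Mcam* and *Fabp4*. The summed level of the fibroblast genes was 34.4, 126 and 236 FPKM in wild type replicates 1, 2 and 3 and 35.8 and 26.2 FPKM in *Brca1* knockout replicates 4 and 5. The endothelial genes summed to 2.84, 12.9 and 27.6 FPKM against 1.91 and 1.89 FPKM. In replicate 3 *Gsn* gave 147 FPKM of the fibroblast sum and *Vwf* 15.4 FPKM of the endothelial sum. The 4 pericyte genes summed to 2.55, 4.65 and 5.36 FPKM against 2.65 and 1.92 FPKM. The order of the libraries was thus shared by these 3 groups at the top, where replicates 2 and 3 held the highest sums. For the adipocyte genes the sum was 5.61, 37.5 and 18.7 FPKM against 3.29 and 2.19 FPKM, and nearly all of it came from *Fabp4*.

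**Figure D1:**
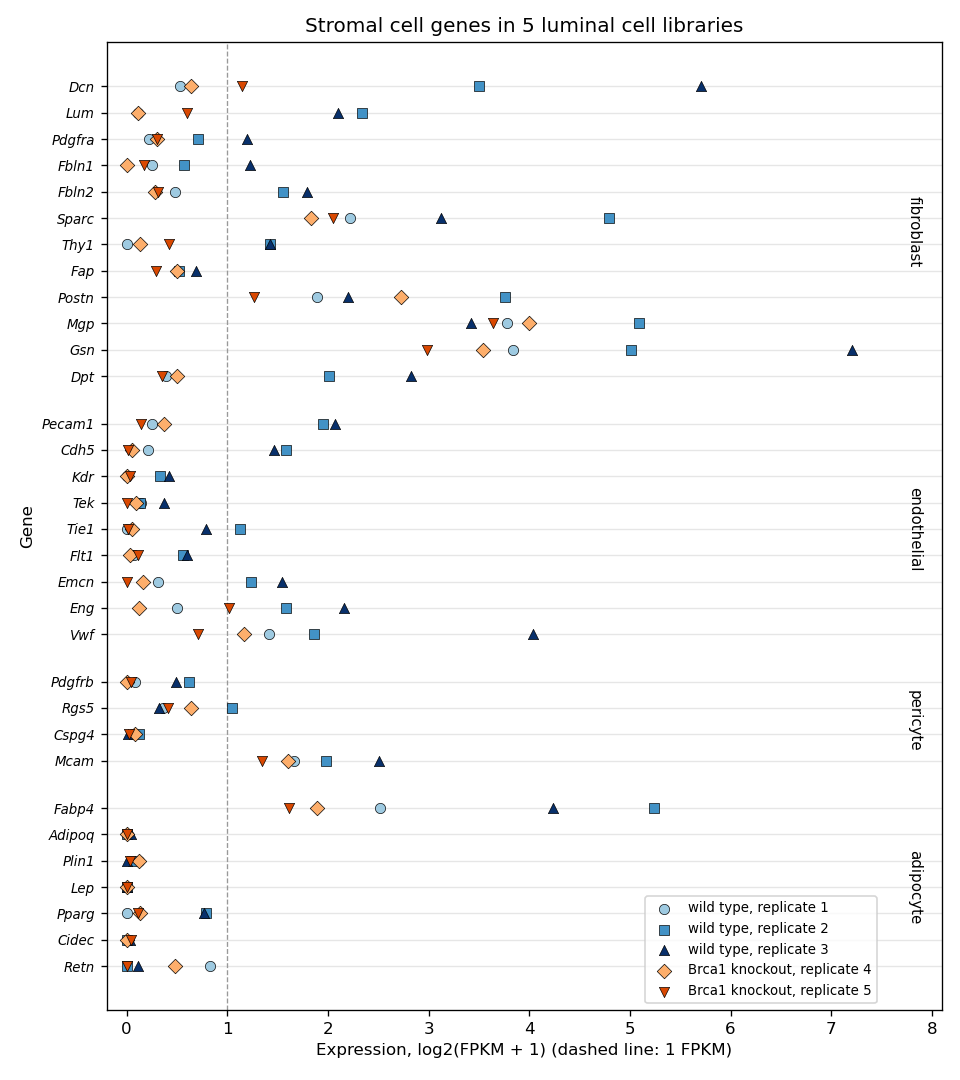
Expression in log2(FPKM + 1) of each of the 32 genes, with 1 point per library, a dashed line at 1 FPKM and genes grouped as fibroblast, endothelial, pericyte and adipocyte. Most of the endothelial and fibroblast genes are highest in wild type replicates 2 and 3, whereas *Lep* is listed at 0 in all 5 libraries and *Adipoq* in 4 of them.

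The 3 wild type libraries were not alike in these genes. Replicates 2 and 3 both lay above the other 3 libraries for 22 of the 32 members: 10 of 12 fibroblast, 8 of 9 endothelial, 2 of 4 pericyte and 2 of 7 adipocyte genes. Among the 13 members whose mean reached 1 FPKM this held for 11 (84.6%), against 1096 of all 11481 genes that did so (9.55%). Of these 11, *Lum*, *Fbln2*, *Dpt* and *Pecam1* were below 1 FPKM in the other 3 libraries and reached that mean through replicates 2 and 3. At least 1 of these 2 replicates thus had to lie above the other 3 libraries for them, though not both. Wild type replicate 1 lay inside the range of the *Brca1* knockout replicates for 12 members, above both for 14 and below both for 6. In a bulk library a smaller number of cells of a type and less RNA per cell cannot be told apart. Among the wild type libraries the fibroblast sums rose with the estimated depth, while replicate 5, with more estimated fragments than replicate 2, had the lowest fibroblast sum. Of these sums, *Gsn* gave 31.3 FPKM in replicate 2 and 147 FPKM in replicate 3. The fibroblast medians of these 2 libraries were 2.18 and 2.15 in log2(FPKM + 1), without such a rise. The part of depth in these levels was not tested.

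Markers of other cells moved as well. The 10 leukocyte markers summed to 27.2, 959 and 261 FPKM in wild type replicates 1, 2 and 3 and to 28.1 and 473 FPKM in replicates 4 and 5. The pan-leukocyte gene *Ptprc* was at 0.0603, 4.93 and 2.69 FPKM against 0.119 and 0.183 FPKM, so the leukocyte marker was also highest in replicates 2 and 3. The high sum of replicate 5 came from *Cd74*, the invariant chain of MHC class II, at 465 FPKM. The basal myoepithelium markers summed to 65.0, 125 and 11.9 FPKM against 40.9 and 64.4 FPKM, with the lowest sum in replicate 3. The mature luminal markers summed to 414 FPKM in replicate 3 and to 18.8 to 43.6 FPKM elsewhere. The part of these other cells in the levels of the 32 genes was not tested.

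**Figure D2:**
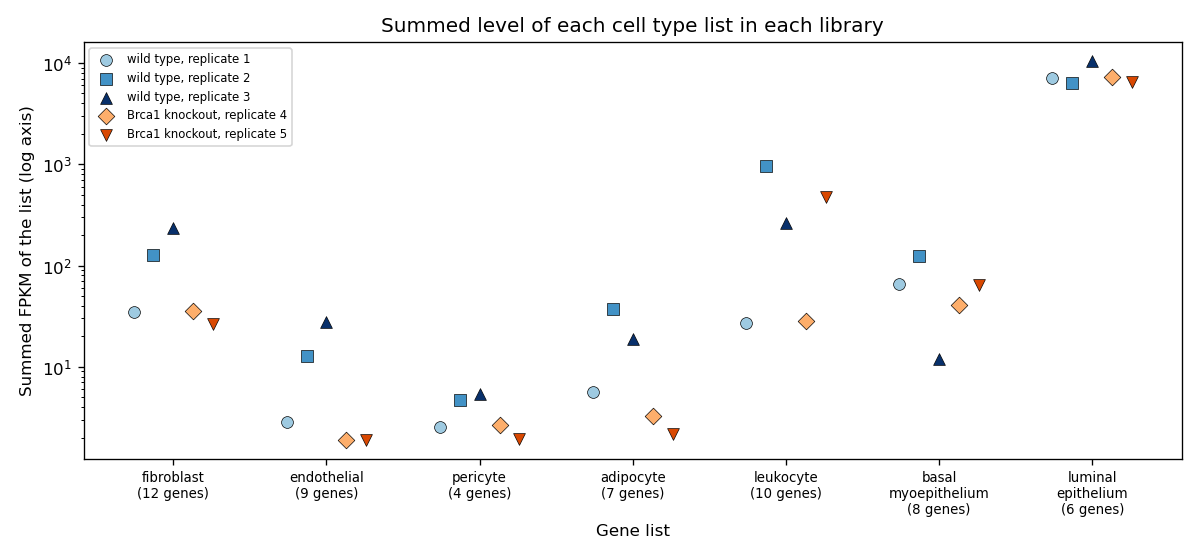
Summed FPKM (log axis) of the 4 member groups and of the leukocyte, basal myoepithelium and luminal epithelium markers, with 1 point per library. Wild type replicates 2 and 3 are the 2 highest points for the 4 member groups, while the luminal epithelium sums stay between 6364 and 10367 FPKM.

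Fibroblast genes gave most of the signal of the set. *Dcn*, which encodes the small proteoglycan decorin that binds collagen fibrils, showed the widest range among them on the log2 scale. The gene lies on the plus strand of chromosome 10 (mm10, 97479609 to 97518143). Its level was 0.445, 10.3 and 51.3 FPKM in wild type replicates 1, 2 and 3 and 0.560 and 1.22 FPKM in *Brca1* knockout replicates 4 and 5. These levels rest on about 4.66, 221 and 2610 fragments of wild type and 5.93 and 43.7 of knockout libraries. *Dcn* thus overlapped between the labels, since replicate 1 was the lowest library of all. *Lum*, which encodes lumican, a proteoglycan of the same family, was at 0.0800, 4.06 and 3.29 FPKM against 0.0793 and 0.515 FPKM. The ratio of *Lum* to *Dcn* within a library was 0.395 in replicate 2 and 0.0641 in replicate 3, so the pair did not keep a fixed proportion in the 2 libraries where both were high.

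*Dpt* encodes dermatopontin, a small matrix protein that binds decorin. It was at 0.313, 3.04 and 6.08 FPKM in wild type replicates 1, 2 and 3, beside 0.414 and 0.275 FPKM in replicates 4 and 5. Replicates 2 and 3 were again on top, and replicate 1 fell between the *Brca1* knockout replicates. Because *Dpt* is one of the fibroblast genes with a RefSeq promoter entry and had its top values in the same 2 libraries as *Dcn*, its promoter is shown (GRCm38.p6, chr1:164796413-164796712, plus strand, 250 bases before to 50 after the start of the gene), with the match to the TATA box letters TATAAA in capitals:
Dpt: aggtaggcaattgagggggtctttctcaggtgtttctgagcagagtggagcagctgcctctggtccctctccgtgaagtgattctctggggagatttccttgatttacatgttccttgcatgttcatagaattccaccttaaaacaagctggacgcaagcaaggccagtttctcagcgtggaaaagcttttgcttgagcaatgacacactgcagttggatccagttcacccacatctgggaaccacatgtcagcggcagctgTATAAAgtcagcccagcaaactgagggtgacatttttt
The letters TATAAA or their reverse complement TTTATA were present in 13.6% of the 32851 promoters of the same length and in 4 of the 29 promoters found for 22 of the members.

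*Gsn* had the highest mean of the fibroblast members, and *Sparc* was another that was above 1 FPKM in each library. *Gsn*, whose product gelsolin severs actin filaments and is also made by epithelium, was at 13.3, 31.3 and 147 FPKM against 10.6 and 6.91 FPKM. *Sparc*, encoding the matrix glycoprotein osteonectin, was at 3.64, 26.7 and 7.73 FPKM against 2.56 and 3.13 FPKM. Both had every wild type library above both *Brca1* knockout libraries. They peaked in different libraries, *Gsn* in replicate 3 and *Sparc* in replicate 2. The ratio of *Sparc* to *Dcn* ran from 0.151 in replicate 3 to 8.19 in replicate 1. The size of the latter is uncertain, since *Dcn* rests on about 4.66 fragments in replicate 1.

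*Mgp* and *Postn* did not follow this order. *Mgp*, which encodes the calcification inhibitor matrix Gla protein, was at 12.7, 33.1 and 9.74 FPKM in the wild type replicates and at 15 and 11.5 FPKM in the *Brca1* knockout replicates, with its lowest value in replicate 3. *Postn*, encoding the matricellular protein periostin, was at 2.71, 12.5 and 3.58 FPKM against 5.61 and 1.40 FPKM. Replicate 2 was the highest library for both, and the labels overlapped.

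Of the remaining fibroblast genes, the fibulins were low. *Fbln2* was at 0.399, 1.94 and 2.46 FPKM against 0.216 and 0.239 FPKM, without overlap between the labels. *Fbln1* reached 1.34 FPKM in replicate 3 and was listed at 0 in replicate 4. *Thy1*, a surface glycoprotein used to sort fibroblasts, was at 1.68 FPKM in both replicates 2 and 3, listed at 0 in replicate 1, and at 0.0969 and 0.343 FPKM in replicates 4 and 5. *Pdgfra*, the platelet-derived growth factor receptor of fibroblasts, was at 0.165, 0.637 and 1.29 FPKM against 0.234 and 0.235 FPKM. *Fap*, which encodes fibroblast activation protein, was the flattest of the group, between 0.228 and 0.613 FPKM in all 5 libraries.

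The fibroblast genes had a median of 1.17 ± 0.91 in log2(FPKM + 1) (SD, n = 5 libraries), whereas the medians over all genes tested lay between 3.11 and 3.38 per library. The fibroblast median was 2.18 in replicate 2 and 2.15 in replicate 3, beside 0.49 to 0.51 elsewhere. A further list of 18 fibroblast genes was read in the same way, and replicates 2 and 3 both lay above the other libraries for 17 of them. Its most abundant gene on this order was *Vim*, the mesenchymal intermediate filament, at 4.22, 121 and 67.3 FPKM against 3.10 and 6.95 FPKM. *Timp2*, an inhibitor of matrix metalloproteinases, lay between 43.5 and 67.2 FPKM in all libraries.

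The endothelial genes were lower in sum than the fibroblast genes in each library. *Pecam1*, the junction protein CD31, and *Cdh5*, the endothelial cadherin, were both above 1 FPKM in replicates 2 and 3 and below it in the other 3 libraries. *Pecam1*, on the minus strand of chromosome 11 (mm10, 106654217 to 106750628), measured 0.193, 2.87 and 3.19 FPKM in wild type replicates 1, 2 and 3, and 0.292 and 0.101 FPKM in *Brca1* knockout replicates 4 and 5. *Cdh5* was at 0.159, 2.0 and 1.75 FPKM against 0.0392 and 0.0116 FPKM, the last 2 values resting on about 0.994 and 0.993 fragments. At such counts the *Brca1* knockout levels of *Cdh5* are at the limit of the depth.

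*Tie1* encodes an orphan receptor kinase of the angiopoietin system that is largely restricted to endothelium. It was listed at 0 in replicate 1, at 1.18 and 0.727 FPKM in replicates 2 and 3, and at 0.0404 and 0.0120 FPKM in replicates 4 and 5. Replicates 2 and 3 held about 62.1 and 90.7 fragments of it, against about 1 fragment in each of replicates 4 and 5. Its promoter is shown because endothelial genes are known targets of ETS factors, whose core letters GGAAG and their reverse complement CTTCC are in capitals (GRCm38.p6, chr4:118489800-118490099, minus strand):
Tie1: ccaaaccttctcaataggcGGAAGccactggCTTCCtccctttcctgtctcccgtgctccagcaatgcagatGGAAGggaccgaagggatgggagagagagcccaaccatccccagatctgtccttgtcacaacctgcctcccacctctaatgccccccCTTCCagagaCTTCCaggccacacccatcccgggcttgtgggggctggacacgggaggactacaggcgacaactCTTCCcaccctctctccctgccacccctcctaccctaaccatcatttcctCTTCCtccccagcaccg
The window held 7 matches. At least 1 match was present in 5 of the 6 endothelial promoters found and in 71.4% of all 32851 promoters, so a match is common in windows of this length. A match describes letters only and is not a bound site.

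The receptors for vascular endothelial growth factor were low. *Kdr*, its main signalling receptor, was listed at 0 in replicates 1 and 4 and was at 0.262, 0.340 and 0.0252 FPKM in replicates 2, 3 and 5. *Flt1*, the decoy receptor, was at 0.0494, 0.476 and 0.516 FPKM in the wild type replicates and at 0.0244 and 0.0797 FPKM in the *Brca1* knockout replicates. Both receptors were highest in replicates 2 and 3. Their ligand *Vegfa* was at 69.2, 52.1 and 54.2 FPKM against 74.6 and 66.2 FPKM, far above the receptors in each library and with its lowest values in replicates 2 and 3.

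*Tek*, the angiopoietin receptor, was the one endothelial member that did not have replicates 2 and 3 on top, at 0.103, 0.0997 and 0.297 FPKM against 0.0660 and 0 FPKM. Its ligand *Angpt1* was between 3.06 and 8.52 FPKM in the 5 libraries. The sialomucin *Emcn* was at 0.245, 1.36 and 1.92 FPKM against 0.122 and 0 FPKM. *Eng*, an accessory receptor for TGF-beta, was at 0.418, 1.99 and 3.47 FPKM against 0.0920 and 1.03 FPKM, and replicate 5 exceeded replicate 1.

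*Vwf*, the clotting factor stored in endothelial granules, was the most abundant endothelial member. *Vwf*, on the plus strand of chromosome 6 (mm10, 125546774 to 125686679), measured 1.67, 2.63 and 15.4 FPKM in the wild type replicates, and 1.24 and 0.633 FPKM in the *Brca1* knockout replicates, without overlap. It did not keep step with the other endothelial genes. The ratio of *Vwf* to *Pecam1* was 0.916 in replicate 2, beside 4.24 to 8.65 elsewhere. That of *Cdh5* to *Pecam1* was between 0.550 and 0.822 in the wild type replicates. It was 0.134 and 0.115 in the *Brca1* knockout replicates, where *Cdh5* rests on about 1 fragment per library. In replicates 1, 4 and 5 *Pecam1* itself rests on about 4.14, 6.33 and 7.37 fragments, so the ratios there are uncertain.

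The endothelial median was 0.61 ± 0.69 in log2(FPKM + 1) (SD, n = 5), with 1.24 in replicate 2, 1.46 in replicate 3 and 0.04 to 0.21 elsewhere. Of 15 further endothelial genes, 13 had replicates 2 and 3 above the other libraries. *Plvap*, a component of the diaphragms of capillary pores, was at 1.57, 6.01 and 8.33 FPKM against 2.29 and 0.580 FPKM. *Ecscr*, which is named for endothelium, had the highest mean of the list, at 22.8, 24.2 and 8.07 FPKM against 27.8 and 20.5 FPKM, and was lowest in replicate 3.

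The pericyte genes did not share one order. *Pdgfrb*, the receptor by which pericytes are recruited, was at 0.0576, 0.541 and 0.402 FPKM against 0 and 0.0338 FPKM, with replicates 2 and 3 highest. *Mcam*, the adhesion molecule CD146, which endothelium and myoepithelium also carry, was the most abundant of the 4 at 2.17, 2.95 and 4.70 FPKM against 2.04 and 1.54 FPKM. *Rgs5*, a regulator of G protein signalling that is among the most used pericyte markers, was at 0.280, 1.07 and 0.248 FPKM against 0.555 and 0.327 FPKM, and its lowest value was in replicate 3. *Cspg4*, the proteoglycan NG2, stayed at or below 0.0923 FPKM. High *Pecam1* in replicate 3 was therefore accompanied by high *Mcam* and *Pdgfrb* but not by high *Rgs5*.

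The pericyte median was 0.41 ± 0.25 in log2(FPKM + 1) (SD, n = 5). *Pdgfb*, the ligand of *Pdgfrb*, was at 13.7, 33.8 and 21 FPKM against 8.89 and 24.7 FPKM, and *Pdgfa* was between 7.32 and 16.7 FPKM. Of 9 further genes of mural cells, 3 reached a mean of 1 FPKM. Replicates 2 and 3 both lay above the other libraries for 1 of the 9. *Notch3* was at 9.69 to 19.1 FPKM in all libraries, and *Tagln*, a smooth muscle gene that myoepithelium shares, at 3.95 to 10.8 FPKM.

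The adipocyte genes behaved as 1 abundant gene and 6 scarce ones. *Fabp4*, a fatty acid binding protein of fat cells that capillary endothelium and macrophages also make, was the only adipocyte member above 1 FPKM in any library. *Fabp4*, on the minus strand of chromosome 3 (mm10, 10204088 to 10208576), measured 4.74, 36.7 and 17.9 FPKM in wild type replicates 1, 2 and 3, and 2.71 and 2.05 FPKM in *Brca1* knockout replicates 4 and 5. All 3 wild type values lay above both *Brca1* knockout values. The ratio of *Fabp4* to *Pecam1* was between 5.60 and 24.6, so *Fabp4* was the higher of the pair in each library. The size of the ratio is uncertain in replicates 1, 4 and 5, where *Pecam1* rests on about 4.14, 6.33 and 7.37 fragments.

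Genes that define mature fat cells were at or near 0. *Adipoq*, which encodes the adipocyte hormone adiponectin, was listed at 0 in 4 libraries and was at 0.0296 FPKM in replicate 3, about 1.07 fragments. A value of 0 for *Adipoq* allows up to 3 fragments, or 0.40 FPKM in replicates 1 and 4, 0.20 in replicate 2 and 0.12 in replicate 5, which covers counting error only. *Lep*, the gene of the satiety hormone leptin, was listed at 0 in all 5 libraries, which allows up to 0.15 FPKM at the shallowest depth. *Plin1*, the coat protein of adipocyte lipid droplets, was at or below 0.0903 FPKM, about 1 fragment where it was seen. *Cidec*, a lipid droplet fusion protein, stayed at or below 0.0292 FPKM. The promoter of *Adipoq* is shown as that of the hormone gene that defines the cell type and was at or near 0 here (GRCm38.p6, chr16:23146286-23146585, plus strand), with its single CTTCC match in capitals:
Adipoq: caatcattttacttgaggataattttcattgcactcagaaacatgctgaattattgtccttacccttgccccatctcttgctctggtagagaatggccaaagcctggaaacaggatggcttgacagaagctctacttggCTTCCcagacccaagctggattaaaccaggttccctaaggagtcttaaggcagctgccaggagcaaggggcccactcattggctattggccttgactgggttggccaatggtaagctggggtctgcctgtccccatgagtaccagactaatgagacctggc

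The other 2 adipocyte members gave opposite orders. *Pparg*, the nuclear receptor that drives fat cell formation and is also made by macrophages and endothelium, was listed at 0 in replicate 1, at 0.731 and 0.709 FPKM in replicates 2 and 3, and at 0.0947 and 0.0834 FPKM in replicates 4 and 5. *Retn*, the gene of the hormone resistin, was at 0.781, 0 and 0.0788 FPKM against 0.392 and 0 FPKM, so that it was highest in replicate 1 and not seen in replicate 2. These *Retn* values rest on about 5.03 fragments at most.

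**Figure D3:**
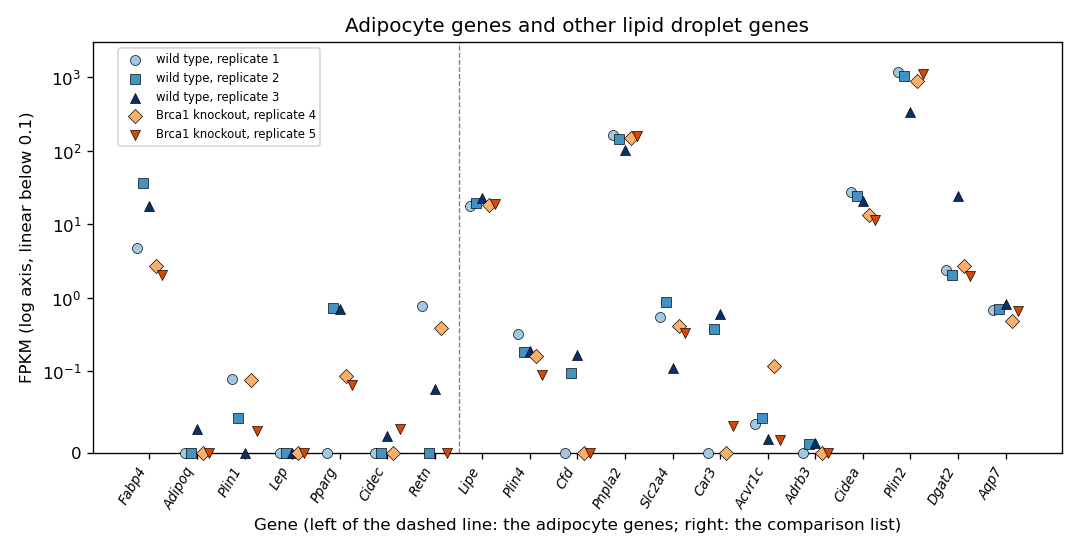
Level in FPKM (log axis, linear below 0.1) of the 7 adipocyte genes, left of the dashed line, and of 12 further genes of fat storage and breakdown, right of it, with 1 point per library. *Fabp4* lies between 2.05 and 36.7 FPKM, while *Adipoq*, *Plin1*, *Lep* and *Cidec* stay below 0.1 FPKM in each library.

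The adipocyte median was 0.04 ± 0.05 in log2(FPKM + 1) (SD, n = 5). In a further list of 12 genes of fat storage and breakdown, 5 were above 1 FPKM in all libraries. The lipid droplet coat gene *Plin2*, which milk-fat-forming epithelium also uses, was at 1198, 1043 and 337 FPKM against 906 and 1110 FPKM, and the lipase gene *Pnpla2* was between 103 and 165 FPKM. Both were lowest in replicate 3, where *Fabp4* was not. Replicates 2 and 3 both lay above the other libraries for 5 of the 12.

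The comparison of the labels asked whether stromal and vascular genes differ between luminal cells labelled *Brca1* knockout and wild type. None of the 13 members tested passed, and the other 19 were below the minimum mean of the test. Each of the 13 members tested had a lower fitted mean in the *Brca1* knockout libraries, with differences from -2.35 to -0.27 on the log2 scale, and the spread among the wild type libraries was of similar size. Limma with Benjamini-Hochberg adjustment on log2(FPKM + 1), over the 11481 genes whose mean reached 1 FPKM, called 0 genes at an adjusted p under 0.05 (0%) and 0 of the 13 members. At an unadjusted p under 0.05 there were 372 genes (3.24%) and 1 member, *Fabp4*.

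*Fabp4* had a mean of 1.75 ± 0.20 in the *Brca1* knockout libraries (SD, n = 2) and 4.0 ± 1.37 in the wild type libraries (SD, n = 3), in log2(FPKM + 1). The difference was -2.25 with a standard error of 0.78 (unadjusted p = 0.0324 and adjusted p = 0.924, limma with Benjamini-Hochberg adjustment), and both *Brca1* knockout libraries lay below all 3 wild type libraries. Without replicates 2 and 3 the difference was -0.77. For *Dcn* the means were 0.90 ± 0.36 and 3.25 ± 2.60, a difference of -2.35 with a standard error of 1.46 (adjusted p = 0.924 in the same limma fit), and without replicates 2 and 3 it was 0.37. The wide wild type spread of *Dcn* came from replicate 1, at 0.445 FPKM, beside replicate 3, at 51.3 FPKM.

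The remaining differences were of the same kind. *Gsn* differed by -2.09 (standard error 0.98), *Vwf* by -1.50 (0.81), *Sparc* by -1.44 (0.75), *Dpt* by -1.32 (0.73), *Pecam1* by -1.17 (0.62) and *Lum* by -1.16 (0.74), all with the adjusted p of 0.924 in the limma fit. *Fbln2*, *Eng* and *Mcam* differed by -0.98, -0.84 and -0.58 and had the same adjusted p. *Postn* differed by -0.62 and *Mgp* by -0.27, with adjusted p of 0.928 and 0.951 from limma. The 13 genes comprised 8 fibroblast, 3 endothelial, 1 pericyte and 1 adipocyte member. The median difference over them was -1.17, beside 0.11 over all genes tested. It was -2.07 with a pseudocount of 0.1 and -1.87 without replicate 1. Markers of other cells had medians as low, with -1.25 for 8 leukocyte, -1.50 for 6 mature luminal and -1.79 for 2 erythroid and platelet genes tested, of which 5, 1 and 1 were below 1 FPKM in both *Brca1* knockout libraries. Of the 13 members, *Lum*, *Fbln2*, *Dpt* and *Pecam1* were below 1 FPKM in both *Brca1* knockout libraries and reached the minimum mean through the wild type libraries, so that they had to be lower in the former.

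The further lists gave no call either. Of the other fibroblast genes 9 of 18 were tested, with a median difference of -1.45, but 7 of these 9 were below 1 FPKM in both *Brca1* knockout libraries and had to come out lower there. Of the other endothelial genes 3 of 15 were tested, with a median of 0.47. Of the other mural genes 3 of 9 were tested, with a median of -0.66. For the other adipocyte genes 5 of 12 were tested, with a median of -0.09. The angiogenic ligands, 10 of 12 of which were tested, had a median difference of 0.26, and 7 of them were higher on average in the *Brca1* knockout libraries. In each of these lists 0 genes passed an adjusted p under 0.05 in the limma fit.

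**Figure D4:**
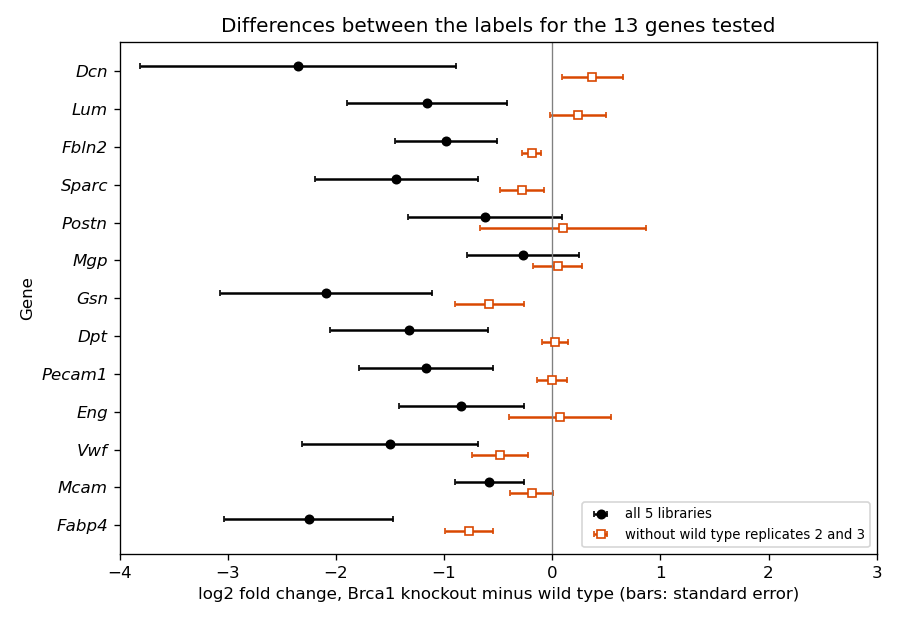
Difference in log2(FPKM + 1), *Brca1* knockout minus wild type, for the 13 members tested, with bars for the standard error of the limma fit. Filled points use all 5 libraries and lie between -2.35 and -0.27, and open points leave out wild type replicates 2 and 3 and lie between -0.77 and 0.37.

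Counted by order instead, 6 of the 13 members had both *Brca1* knockout libraries below all wild type libraries (*Fbln2*, *Sparc*, *Gsn*, *Vwf*, *Mcam* and *Fabp4*), beside 5.77% of all genes tested. In the other direction there were 0 members, beside 17.5% of all genes tested. *Fbln2*, like *Lum*, *Dpt* and *Pecam1* among the 13, reached the minimum mean through the wild type libraries only. At least 1 wild type library thus had to lie above both knockout libraries for these genes, and the other direction was closed to them. The background split of 663 lower and 2014 higher genes moved to 1088 and 1433 under median-of-ratios scaling and to 926 and 1476 under quantile normalization, while the members' counts of 6 and 0 stayed the same. Without the minimum mean the count was 12 of the 31 members above 0 in a library, beside 6.69% of 19352 genes. Without replicates 2 and 3, the remaining wild type library gave differences between -0.77 and 0.37 over the 13 members, of which 7 were negative and 6 positive. For 11 of the 13 members replicates 2 and 3 both lay above the other libraries. Leaving these 2 out therefore had to make those differences less negative, and the step is a description, not a test. The size of the difference between the labels rested largely on wild type replicates 2 and 3, in which *Ptprc* was also highest. The part of the genotype in it cannot be told apart from other differences between those libraries.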

How the data were processed

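RNA-seq was measured in 5 libraries of sorted mouse mammary luminal cells, grouped by the genotype in the labels (3 wild type, 2 *Brca1* knockout). The authors made paired-end libraries with a NEBNext Ultra kit, which does not keep strand, so genes that overlap on opposite strands cannot be told apart. They aligned reads to mm10 with TopHat2 and deposited FPKM per gene from Cufflinks 2.2.1. The submitters' processing notes name Trimmomatic 0.35 and TopHat2 2.0.13, and the methods name another TopHat release. The gene annotation is not given in the sources used here. The methods name a pair of Illumina platforms without the platform of each library.

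The deposited FPKM table had 24346 rows. A spreadsheet date stood in place of the gene name in 27, which were left out. No other columns of per-sample values were present. Levels were put on a log2(FPKM + 1) scale, on which the change of a low gene comes out too small. Genes whose mean reached 1 FPKM were compared with limma 3.58.1 (lmFit, eBayes with trend) in R 4.3.3, with Benjamini-Hochberg adjustment over all of them and a threshold of 0.05. Depth was read from the steps between low FPKM values times transcript length, assuming a mean fragment of 150 bases. Between 53.3% and 58.3% of values lay within 0.15 of a whole fragment, so no counts were recovered and no count model was run. Chance gives 30% at a depth fixed in advance. The depth was picked for how near whole fragments these same values fell, so 30% is not its chance level. Fragment numbers are approximate and cover counting error only. The depth estimate and the limma fit were tested on simulated data.

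The members and all lists were chosen with earlier results of these data known, and lists are described by counts and medians without a test. All 32 members are reported. Of each further list, at most the 2 genes with the highest mean are named, plus genes needed to read a member. Coordinates are from GENCODE M21 (GRCm38, the mm10 genome) and promoters from RefSeq (GRCm38.p6), which matched 22 of 32 members. Alternatives were another pseudocount, scaling, filter, variance model or sample weighting, the mean in place of the median, and libraries left out. Calculations ran in Python 3.11.15 with scipy 1.17.1, numpy 2.4.6 and pandas 2.3.3. Tumor and single cell data of the study are not analysed here.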

Additional observations from a re-analysis of the deposited data

Results flagged for a closer look

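With the 5 libraries taken as one group on the log2(FPKM + 1) scale, *Adipoq* had 1 library that stood apart from the others, wild type replicate 3, at 0.0296 FPKM where the other 4 libraries were listed at 0. This value amounts to about 1.07 fragments. A gene listed at 0 in 4 of 5 libraries meets the criterion at any other value, so the case follows from this fragment. *Adipoq* was the only such case on that scale among 31 members with a value above 0. Chance gives about 1 in 20, or 1.55 cases, for normally spread values. Genes listed at 0 in several libraries are not spread so, and the rate is only a rough guide for them. On the FPKM scale itself, tried after the values were seen, the same criterion was met by 6 members. Among genes whose mean reached 1 FPKM it was met by 5 of 13 members (38.5%), beside 12.6% of all 11481 genes. The 6 were *Adipoq*, *Dcn*, *Gsn* and *Vwf*, highest in replicate 3, and *Sparc* and *Mgp*, highest in replicate 2.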

How the results depend on the processing

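Depth limits the low members, since 32 of 52 member values below 10 fragments lay near a whole fragment, and a 0 in replicates 1 and 4 allows more than in the deeper libraries. No paired analysis was possible because the labels share no replicate number. With all libraries kept, the 13 members' differences kept their direction and stayed above the threshold in 104 of 104 cases, with adjusted p of at least 0.111, reached with arrayWeights. There all 13 members had an unadjusted p under 0.05 in the limma fit, beside 2799 of all 11481 genes tested. In the main fit, without weights, these counts were 1 member and 372 genes, so the weighting raised the count over all genes as well. With libraries left out, 8 of 78 reversed. These were *Mgp* without replicate 2 (0.22), *Postn* without replicate 5 (0.11), whose values ranged from -0.61 to 0.22 and from -1.35 to 0.11 with 1 replicate left out, and, without replicates 2 and 3, *Dcn* (0.37), *Lum* (0.24), *Postn* (0.10), *Mgp* (0.05), *Dpt* (0.03) and *Eng* (0.07). Genes called numbered 1 with arrayWeights, 3 without replicates 2 and 3 and between 0 and 18 with 1 replicate left out (2 without replicate 1, 18 without replicate 4 and 4 without replicate 5), and no member was among them. Members without overlap, lower in the knockout, numbered 12 of 31 with no filter, beside 1294 of 19352 genes. With a minimum mean of 0.1 FPKM they numbered 12 of 27, beside 1069 of 14988 genes. With 1 replicate left out they numbered between 6 and 11 of 13, beside 1023 to 1792 of all 11481 genes. The 11 were without replicate 1, where 1413 genes did so, against 663 with all libraries. Leaving out a library makes such an order easier to reach for any gene.

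With a pseudocount of 0.1 the list medians were 0.16 (fibroblast), -1.22 (endothelial), -1.44 (pericyte) and -2.99 (adipocyte), and the differences between the labels -1.85 (fibroblast), -2.62 (endothelial), -0.69 (pericyte) and 0.51 (adipocyte). Without replicates 2 and 3 the differences were 0.01 (fibroblast), -0.15 (endothelial) and 0.07 (pericyte), beside -1.10, -0.91 and -0.19 with all libraries. The adipocyte difference of 0.07 lay between 0.02 and 0.11 with 1 replicate left out. The mean in place of the median gave levels of 0.67 (pericyte) and 0.55 (adipocyte), and an adipocyte difference of -0.39, of opposite sign to the median, since the mean includes *Fabp4*. Under median-of-ratios scaling the median difference of all genes moved from 0.11 to 0.01, and that of the 13 members from -1.17 to -1.23. Where not stated, the cause was not tested.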

Other observations

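A few genes often listed for stromal or nerve cells were abundant in each of these luminal libraries. *Sox10*, a transcription factor known from neural crest and Schwann cells, was at 119, 87.6 and 71.8 FPKM in wild type replicates 1, 2 and 3, beside 113 and 132 FPKM in *Brca1* knockout replicates 4 and 5. *Tgfb3*, a growth factor gene among the ligands, was at 33.1, 17.7 and 39.1 FPKM against 43.3 and 47.2 FPKM. Both *Brca1* knockout libraries thus lay above the wild type libraries, as they did for 17.5% of all genes tested. Its difference of 0.65 (standard error 0.36) did not pass the test (adjusted p = 0.924, limma with Benjamini-Hochberg adjustment).

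*Cidea*, which encodes a lipid droplet protein of brown fat and of milk-forming epithelium, was at 28.0, 24.6 and 20.6 FPKM against 13.4 and 11.5 FPKM, and was chosen for mention after its values were seen. Its difference of -0.90 (standard error 0.20) had an unadjusted p of 0.00557 and an adjusted p of 0.924 in the same limma fit. Both *Brca1* knockout libraries lay below all 3 wild type libraries, as they did for 5.77% of all genes tested. Its relative *Cidec* stayed at or below 0.0292 FPKM. The platelet gene *Pf4* was at 31.7 FPKM in replicate 2, at 1.32 FPKM in replicate 3 and at or below 0.332 FPKM elsewhere.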
